A study of Mus musculus with 12 samples.

Results

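The comparison set the cortex of wild-type newborn mice against the tissue labelled subcortex, also from wild-type newborn mice. Its members were the genes listed at 1 FPKM or more in at least one of the 2 tissues, 14069 of 23983 genes in the series. FPKM is the number of sequenced fragments per kilobase of transcript, divided by the number mapped in the library, so it is a level per length. Of these genes, 6 carried the authors' mark for loci too deeply covered to be estimated and were left out, and 14063 were compared.

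Total RNA had been sequenced from 12 samples of postnatal day 0 brains on a mixed strain background, 3 in each of 4 groups, and 6 of these samples enter the comparison. The wild-type groups are labelled as wild type, with no allele named. The other 6 samples, used below only to look at the same regional ratio in other animals, have the genotype Reck flex2/Δex1; Tie2Cre and are called vKO. Their Cre recombinase is driven by the Tie2 promoter, which is active in endothelial cells and also in blood lineages, and it acts on Reck, a membrane protein of endothelial cells that takes part in Wnt7 signalling. The deposited tables hold 1 value per group, calculated by the authors from its 3 samples. No value of a single sample, no standard deviation and no read depth can therefore be given, no test between the tissues was possible, and every difference below is a description of these group values. The labels do not say where the cut between cortex and subcortex was made, or whether samples of both tissues came from the same animals.

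The embryonic neural tube is divided early into forebrain, midbrain and hindbrain, and each division is marked by its own transcription factors. In the forebrain, dorsal progenitors make glutamatergic projection neurons of the cortex and hippocampus, and ventral progenitors in the ganglionic eminences make GABAergic neurons of the striatum and the interneurons that migrate into the cortex. Thalamus, hypothalamus, midbrain and hindbrain contribute the relay neurons, peptide neurons and monoamine and glycine neurons of the brain. At birth, cortical neurogenesis is nearly over and the formation of glia is under way.

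Cortex and subcortex values had been scaled in separate tables. The median ratio of cortex to subcortex FPKM was 0.959, and the subcortex values were multiplied by it before comparison. A regional difference is given as log2 of (cortex FPKM + 1) over (scaled subcortex FPKM + 1), positive where cortex was higher, and a gene was counted as higher in a tissue from a 2-fold difference on this scale. FPKM values themselves are quoted as deposited, cortex first.

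Most genes were at like levels in both tissues: 79.2% lay within 1.5-fold. In cortex, 452 genes (3.21%) were at least 2-fold higher, and in subcortex 545 (3.88%). At 4-fold the counts were 134 and 100. The 2-fold shares of all genes are the background for the list counts below. A gene below 1 FPKM in cortex or in subcortex entered through the other tissue alone, so the filter largely set its direction. The share of the 2-fold calls that fell on the cortex side, 45.3%, depended on how the tables were put on one scale: it was 57.1% with both columns scaled to the same sum and 56.5% with scaling by 16 housekeeping genes, which moved the median of all genes by 0.12 and 0.11 on the log2 scale. Transcript length also moved with the ratio. Over 13377 genes with a known length, Spearman's rho between length and the log2 ratio was 0.329 (across genes, which are not independent replicates), with a median of -0.30 in the shortest decile of genes and 0.30 in the longest, while in the vKO groups rho was -0.08. The part of length in single differences was not tested, but with the trend by length removed 385 genes were higher in cortex and 510 in subcortex, among them 347 of the 434 and 448 of the 528 called genes that had a length.

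**Figure D1:**
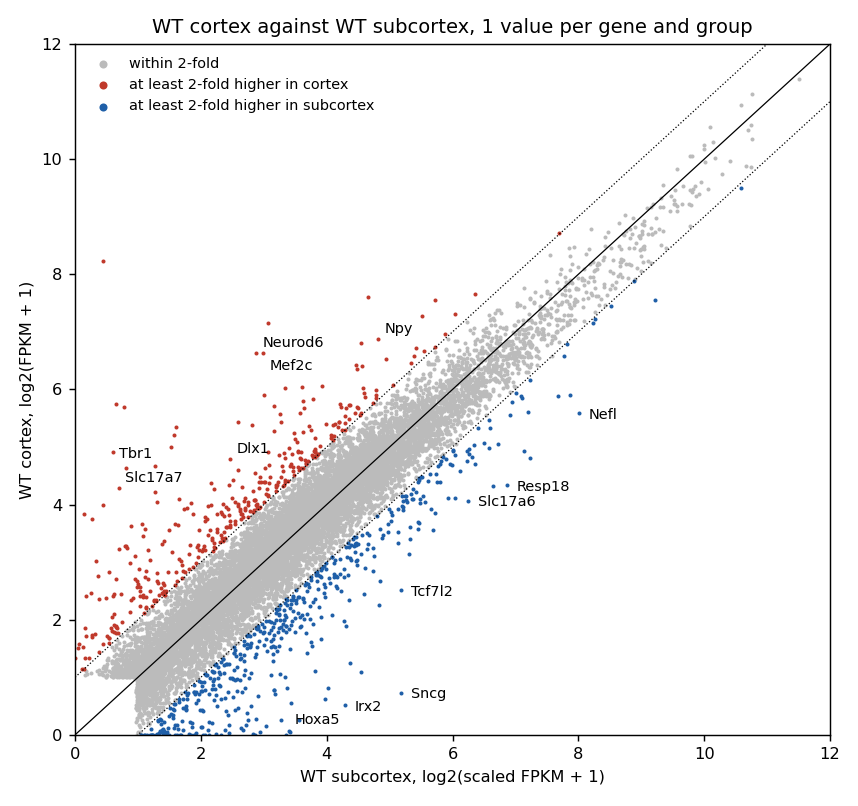
Level of each gene in WT cortex (vertical, log2(FPKM + 1)) against WT subcortex (horizontal, log2(scaled FPKM + 1)), small RNA entries left out; each point is 1 gene, the solid line marks equal levels and the dotted lines 2-fold. Tbr1, Neurod6 and Mef2c lie far above the line and Sncg, Irx2 and Tcf7l2 far below it; the highest of the unlabelled points at upper left is the histone gene Hist1h4n (299.99 and 0.368 FPKM), which belongs to a family of near-identical copies and was marked by the authors as having too little data in both tables.

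The cortical side of the comparison was led by transcription factors of cortical projection neurons. Of the 28 genes in this list, 21 were at least 2-fold higher in cortex and none in subcortex, beside 3.21% of all genes compared, and the list's median log2 ratio was 1.79 beside 0 for all genes. Tbr1, a T-box factor of layer VI and subplate neurons, was at 29.0 and 0.537 FPKM (log2 ratio 4.31). Emx1, a homeobox gene of the dorsal telencephalon, was at 13.3 and 0.106 FPKM (3.70), and Fezf2, which directs corticospinal neuron fate, at 14.9 and 0.374 FPKM (3.55). These 3 genes were all below 1 FPKM in subcortex. The promoter of Tbr1 is shown because the gene was the layer VI factor with the largest ratio. RefSeq (GRCm38.p6) places the gene at chr2:61802863-61814114, and the 250 bases before the start site that the promoter table uses, which lies inside these bounds, are given on the plus strand at chr2:61804203-61804452, with TAATTA, the core letters of many homeodomain sites, in capitals.
Tbr1: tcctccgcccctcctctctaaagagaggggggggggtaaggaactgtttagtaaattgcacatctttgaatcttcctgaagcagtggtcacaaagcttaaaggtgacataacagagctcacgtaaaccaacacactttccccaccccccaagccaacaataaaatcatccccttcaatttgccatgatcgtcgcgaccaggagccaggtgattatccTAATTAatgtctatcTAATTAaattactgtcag

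Other members were abundant in cortex without being near the floor in subcortex. Neurod6, a bHLH factor of maturing pyramidal neurons, was at 98.3 and 6.61 FPKM, 15.5-fold by scaled FPKM. Mef2c, which regulates synapse formation, was at 98.8 and 7.26 FPKM, 14.2-fold. Zbtb18, a zinc-finger repressor needed for projection neuron maturation, reached 194 FPKM in cortex against 25.2 in subcortex (log2 ratio 2.95). Neurod2 (58.9 and 7.28 FPKM, 2.91) and Bhlhe22 (64.3 and 9.45 FPKM, 2.70), both bHLH factors of the same neurons, were alike in size.

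The 7 list members within 2-fold were Neurod1, Cux1, Emx2, Nr2f1, Rorb, Pou3f2 and Tle4. Neurod1 was at 11.0 and 12.3 FPKM (log2 ratio -0.09) and Cux1, widely used as an upper-layer marker, at 41.7 and 41.3 FPKM (0.07). Both are named because they completed the list, after their values were seen. Removing the length trend left 19 of the 28 past 2-fold and a median of 1.66.

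Genes of single cortical layers were more mixed. Of 16 upper-layer genes, 7 were at least 2-fold higher in cortex and none in subcortex (median 0.87). Lmo4, a LIM-only regulator of transcription, reached 104 and 43.6 FPKM (log2 ratio 1.30), and Plxnd1, a semaphorin receptor, 19.9 and 3.60 FPKM (2.23). Inhba, an activin subunit, was at 4.90 and 1.02 FPKM (1.58). Of 20 deep-layer and subplate genes compared, 10 were higher in cortex and 2 in subcortex (median 0.97).

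On the cortex side of the deep-layer list stood Crym, a thyroid hormone binding protein, at 42.3 and 5.26 FPKM (log2 ratio 2.84), Bcl11b, the factor of subcerebral projection neurons, at 40.7 and 6.24 FPKM (2.58), and Ntsr1, the neurotensin receptor of layer VI neurons, at 7.62 and 0.985 FPKM (2.15). On the subcortex side stood Pcp4, a calmodulin regulator also made by Purkinje cells and thalamic neurons, at 58.8 and 241 FPKM (-1.96), and Nxph4 at 1.88 and 7.96 FPKM (-1.59). A gene used to mark a cortical layer was thus not always a gene of higher level in cortex.

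The same held for the 8 genes used as markers of Cajal-Retzius cells, the early-born neurons of the cortical surface. Reln, which encodes the secreted signal that guides neuronal layering, was at 50.5 and 22.2 FPKM (log2 ratio 1.21), and Trp73 at 1.99 and 0.381 FPKM (1.13). Lhx1 (0.380 and 5.23 FPKM, -2.12), Lhx5 (1.05 and 7.97 FPKM, -2.07), Calb2 (22.9 and 71.5 FPKM, -1.54) and Ebf3 (1.36 and 20.5 FPKM, -3.13) were all higher in subcortex, where each is also known from other neurons. Reln was one of the genes whose regional difference was not seen in the vKO groups, with 26.4 and 28.9 FPKM.

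Among 9 hippocampal genes compared, Zbtb20, a zinc-finger factor of the hippocampal field, was at 29.1 and 7.71 FPKM (log2 ratio 1.84), and Prox1, the dentate gyrus factor, at 5.13 and 6.86 FPKM (-0.31). Lhx9 and Lmx1a were the 2 members higher in subcortex.

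**Figure D2:**
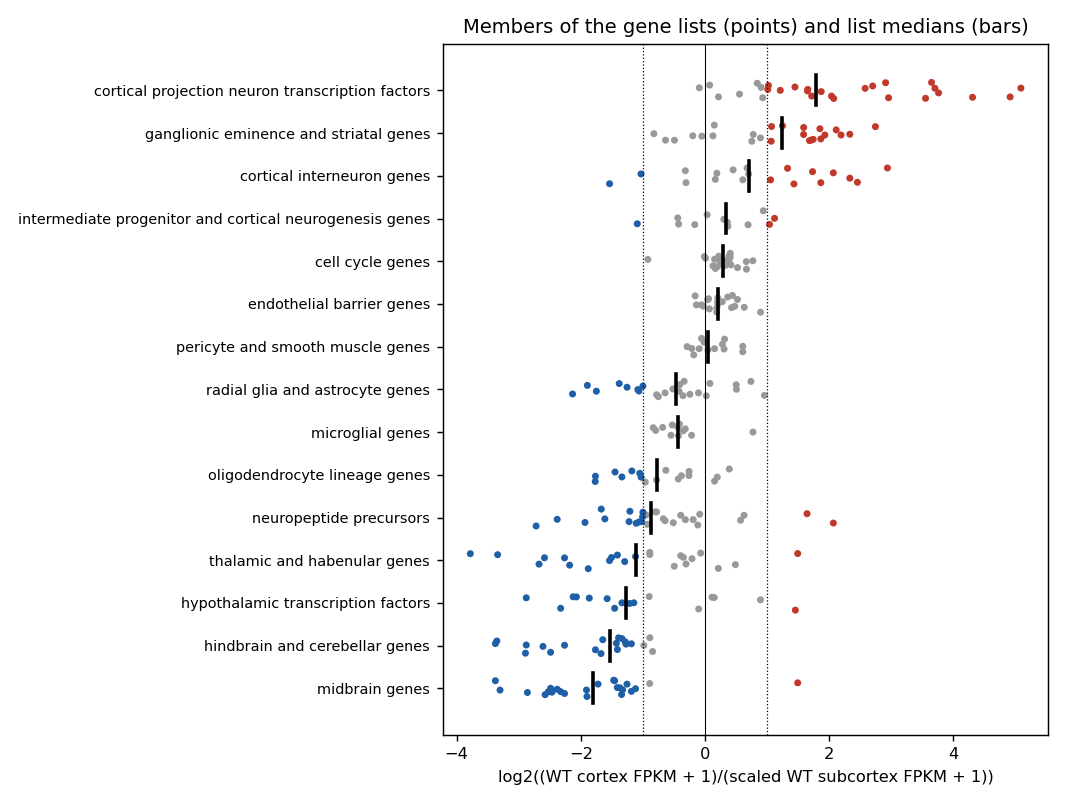
Log2 ratio of WT cortex over scaled WT subcortex (horizontal) for each member compared of 15 gene lists (rows); points are genes, red from 2-fold higher in cortex and blue from 2-fold higher in subcortex, black bars are list medians and dotted lines mark 2-fold. Medians run from 1.79 for cortical projection neuron transcription factors to -1.81 for midbrain genes, and the cell cycle, endothelial and pericyte lists lie between the dotted lines.

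Genes of the ganglionic eminences and striatum were higher in the tissue labelled cortex. Of 25 compared, 15 were at least 2-fold higher in cortex and none in subcortex (median 1.25). Dlx1, a homeobox gene of GABAergic progenitors, was at 26.8 and 4.72 FPKM (log2 ratio 2.33), Dlx2 at 6.91 and 0.866 (2.11), Dlx5 at 6.38 and 1.07 (1.86) and Dlx6 at 8.93 and 1.68 (1.93). The antisense transcripts Dlx1as (24.5 and 1.47 FPKM) and Dlx6os1 (31.0 and 1.96 FPKM) showed like ratios. The libraries were made with a stranded kit, but the labels do not state whether the counting used strand, so the split of reads between these genes and their overlapping partners is uncertain.

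Several markers of differentiated striatal neurons lay on the same side, while Ptpn5 and Rgs9 did not. Ppp1r1b, the phosphatase inhibitor DARPP-32 of medium spiny neurons, was at 15.4 and 1.52 FPKM (log2 ratio 2.74), and the dopamine D1 receptor gene Drd1 at 7.21 and 1.33 FPKM (1.85). Meis2 and Foxp1, 2 abundant striatal transcription factors, were at 56.7 and 27.6 FPKM (1.07) and at 28.9 and 9.34 FPKM (1.59). The 10 members within 2-fold included Drd2 (3.01 and 2.79 FPKM, 0.13), Rgs9 (-0.20) and Ptpn5 (29.8 and 49.0 FPKM, -0.64). Of these, Drd2 and Rgs9 are named after their values were seen. With the length trend removed 12 members were past 2-fold toward cortex and 1, Foxp2 (13.5 and 25.8 FPKM), toward subcortex.

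Cortical interneurons, born in the medial and caudal ganglionic eminences, were represented by 19 genes, of which 9 were higher in cortex and 2 in subcortex (median 0.70). Lhx6, the factor of medial eminence interneurons, was at 17.5 and 1.48 FPKM (log2 ratio 2.94), and Htr3a, a serotonin receptor of caudal eminence interneurons, at 4.48 and 0.678 FPKM (1.73). Npy, the neuropeptide Y precursor, reached 117 and 28.3 FPKM (2.07), whereas Sst, the somatostatin precursor, was abundant in both tissues at 95.2 and 124 FPKM (-0.32). In subcortex Calb2 and Pvalb were higher, Pvalb at only 0.386 and 1.91 FPKM (-1.03).

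Of 12 genes of intermediate progenitors and cortical neurogenesis, 2 were at least 2-fold higher in cortex and 1 in subcortex (median 0.33). Eomes, the marker of intermediate progenitors, was at 5.48 and 2.48 FPKM (log2 ratio 0.94), and Neurog2, which starts glutamatergic neurogenesis, at 4.03 and 1.51 FPKM (1.04). Insm1, a zinc-finger factor of the same progenitors, was at 11.6 and 5.02 FPKM (1.12). Rnd2, a GTPase of migrating neurons, was the member higher in subcortex, at 26.8 and 60.8 FPKM (-1.09), but at -0.88 with the length trend removed. Among 24 cell cycle genes none was past 2-fold in either direction and the median was 0.29. For a list of this size a count of 0 is near the 3.21% and 3.88% of all genes. In vKO the median was 0.67 and 2 members were past 2-fold toward cortex. The 3 with the highest FPKM in WT, all parts of the DNA replication machinery, were Pcna, Mcm7 and Mcm6. Pcna was at 56.5 and 52.9, Mcm7 at 23.4 and 13.9, and Mcm6 at 16.6 and 17.5 FPKM.

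Of 23 genes of transmitter synthesis and transport compared, 13 were higher in subcortex, beside 3.88% of all genes, and 1 in cortex (median -1.28). The median was -0.62 with genes testable in both tables and -0.48 with a pseudocount of 5. The gene higher in cortex was Slc17a7, the vesicular glutamate transporter VGLUT1 of cortical neurons, at 18.5 FPKM in cortex and 0.641 in subcortex (log2 ratio 3.59). Slc17a6, the transporter VGLUT2 of thalamic and brainstem neurons, was at 15.8 and 78.4 FPKM (-2.18), 4.76-fold higher in subcortex by scaled FPKM. Gad1 (39.9 and 48.7 FPKM, -0.22) and Gad2 (18.5 and 17.7 FPKM, 0.12), which make GABA, were both within 2-fold, Gad2 being named after its value was seen.

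Several genes of transmitters made in brainstem nuclei were low in cortex. Of these, Tph2, Slc6a4, Slc6a3, Slc6a2 and Slc6a5 were below 1 FPKM there and entered the comparison through their subcortex level alone. The filter thus set their direction, and the subcortex count of the list includes them. Tph2, which makes serotonin, was at 0.120 and 5.82 FPKM (log2 ratio -2.55), and Slc6a4, the serotonin transporter, at 0.589 and 6.76 FPKM (-2.24). Slc6a3, the dopamine transporter, was at 0.0998 and 3.20 FPKM (-1.89), and Ddc, the decarboxylase shared by serotonin and dopamine synthesis, at 1.09 and 8.90 FPKM (-2.19). Slc6a2, the noradrenaline transporter, was listed at 0 in cortex and at 2.08 FPKM in subcortex. Slc6a5, the glycine transporter of inhibitory neurons in brainstem and spinal cord, was at 0.0252 and 4.67 FPKM (-2.42). Ache, the enzyme that splits acetylcholine, stood higher in both, at 7.62 and 27.1 FPKM (-1.65). In the vKO groups these genes also had their higher value in subcortex.

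**Figure D3:**
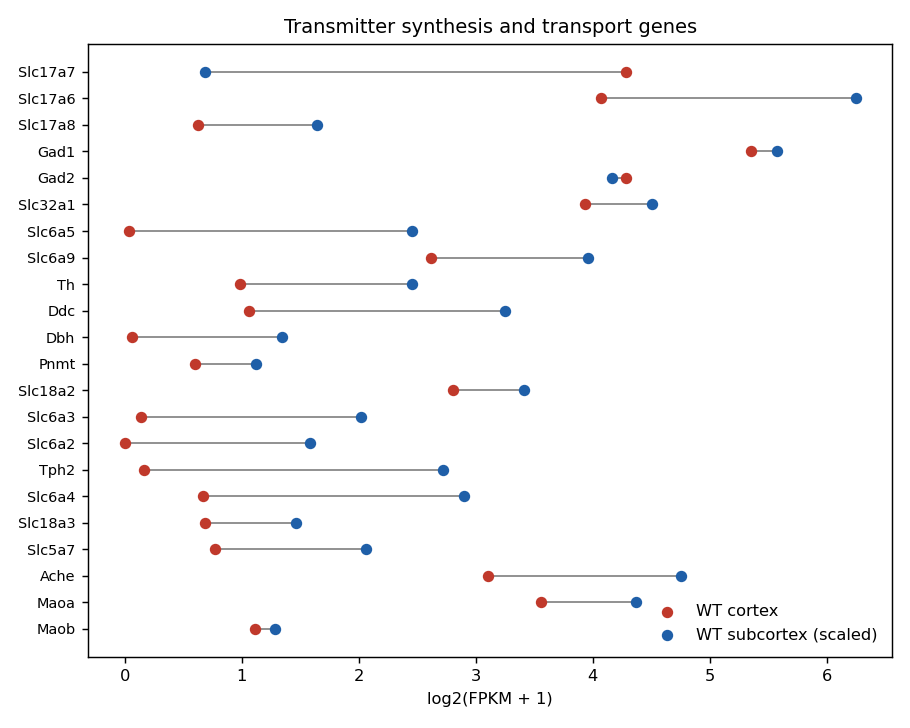
Level, as log2(FPKM + 1), of 22 of the 23 transmitter synthesis and transport genes compared, in WT cortex (red) and WT subcortex (blue, scaled); the grey line joins the values of 1 gene, and Slc6a2 is listed at 0 in cortex. Slc17a7 is the gene whose cortex value lies far to the right, while Slc17a6 and the serotonin, dopamine and glycine genes have the subcortex value to the right.

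Of 23 thalamic and habenular genes compared, 12 were higher in subcortex, beside 3.88% of all genes. In cortex 1 was higher, and 10 were within 2-fold (list median -1.12). Gbx2, Pou4f1, Irx1 and Irx2 were below 1 FPKM in cortex and entered the comparison through their subcortex level alone. The filter thus set the direction of these members. Tcf7l2, the transcription factor that maintains thalamic identity, was at 4.71 and 37.0 FPKM (log2 ratio -2.67), 7.52-fold by scaled FPKM. Lhx9, a LIM homeobox gene of the thalamus, was at 3.76 and 28.8 FPKM (-2.59), and Gbx2, expressed in new thalamic neurons, at 0.763 and 5.73 FPKM (-1.88). Pou4f1, the habenular factor, was at 0.131 and 4.62 FPKM (-2.26). Nr4a2, the 1 member higher in cortex (13.2 and 4.22 FPKM, 1.49), is known both from dopamine neurons and from subplate and claustrum.

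Irx2 and Irx1, Iroquois homeobox genes of caudal thalamus, midbrain and hindbrain, had the largest ratios of this list. Irx2 was at 0.430 and 19.4 FPKM (log2 ratio -3.78) and Irx1 at 0.543 and 15.3 FPKM (-3.34). The promoter of Irx2 is shown as that of the transcription factor gene with the largest ratio toward subcortex among list members with a value above 0 in both tissues. RefSeq places the gene at chr13:72624430-72634196; the 250 bases before the table's start site, inside those bounds, lie at chr13:72628570-72628819 on the plus strand, with CAGATG, an E-box of the kind bound by bHLH factors, in capitals.
Irx2: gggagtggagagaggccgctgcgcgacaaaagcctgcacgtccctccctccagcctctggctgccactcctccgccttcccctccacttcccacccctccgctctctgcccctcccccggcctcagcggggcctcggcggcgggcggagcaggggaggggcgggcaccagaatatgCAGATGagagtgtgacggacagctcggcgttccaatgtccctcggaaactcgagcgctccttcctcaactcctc

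Only 16 of the 26 hypothalamic transcription factors reached 1 FPKM in either tissue. Of these, 10 were higher in subcortex and 1 in cortex (median -1.28). Several passed only through their subcortex level, and the median was -0.50 with all members and -0.51 with members testable in both tables. Barhl1, of the mammillary region and cerebellum, was at 0.112 and 7.49 FPKM (log2 ratio -2.88), and Otp, needed for peptide neurons, at 0.355 and 3.17 FPKM (-1.58). Lhx8, a factor of basal forebrain cholinergic neurons, was the 1 member higher in cortex, at 4.08 and 0.893 FPKM (1.45). Nkx2-1, which marks both hypothalamus and the medial ganglionic eminence, was at 1.48 and 1.36 FPKM (0.11) and is named after its value was seen.

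Of 28 neuropeptide precursors compared, 12 were higher in subcortex and 2 in cortex, beside 3.88% and 3.21% of all genes (list median -0.86). Cartpt and Gal were below 1 FPKM in cortex and entered the comparison through their subcortex level alone. Pmch, the melanin-concentrating hormone precursor of the lateral hypothalamus, was at 1.14 and 13.7 FPKM (log2 ratio -2.72), Cartpt at 0.714 and 8.27 FPKM (-2.38), Avp, the vasopressin precursor, at 1.81 and 10.1 FPKM (-1.93) and Gal, the galanin precursor, at 0.950 and 5.18 FPKM (-1.61). The 2 precursors higher in cortex were Npy and Nts, the neurotensin precursor, at 40.0 and 12.7 FPKM (1.64). Precursor transcripts are short, and with the length trend removed 8 stayed past 2-fold toward subcortex, with a median of -0.65.

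Midbrain genes had the lowest median among lists with more than 20 members compared. Of 24, 22 were at least 2-fold higher in subcortex and 1, Nr4a2, in cortex (median -1.81; -0.74 with a pseudocount of 5 and -3.77 with 0.1). En2, an engrailed gene of the midbrain and hindbrain border, was at 0.0325 and 10.1 FPKM (log2 ratio -3.38), and its paralogue En1 at 0.195 and 5.94 FPKM (-2.49). Tfap2b was at 0.197 and 11.3 FPKM (-3.30), Sox14 and Gata3, factors of GABAergic midbrain neurons, at 0.0651 and 5.58 (-2.58) and at 0.0832 and 5.46 FPKM (-2.52), and Pou4f2 was listed at 0 in cortex and at 6.54 FPKM in subcortex. Otx2, of forebrain and midbrain, was at 2.39 and 12.2 FPKM (-1.91). Because most of these genes were near 0 in cortex, they entered the comparison through their subcortex level alone, and their counts and those of the next lists describe the members that reached 1 FPKM, not all members.

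Of 30 hindbrain and cerebellar genes, 20 were compared, and 17 of them were higher in subcortex with none higher in cortex (median -1.54; -0.69 with a pseudocount of 5 and -3.95 with 0.1). Pcp2, a Purkinje cell gene, was listed at 0 in cortex and at 9.61 FPKM in subcortex. Zic1, a zinc-finger gene of cerebellar granule neurons and dorsal midline, was the most abundant of the list, at 19.9 and 56.9 FPKM (log2 ratio -1.41). Irx5 was at 0.0301 and 6.93 FPKM (-2.89).

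Hox genes, which pattern the hindbrain and spinal cord along their length, were near 0 or listed at 0 in cortex. Of 27 Hox genes in paralogue groups 1 to 9, 14 reached 1 FPKM in subcortex; the highest value of any of the 27 in cortex was 0.0418 FPKM. Of the 14, 12 were listed at 0 in cortex, so no fold is given for them. Hoxa5 was the most abundant, at 9.93 FPKM in subcortex and 0.0418 in cortex (log2 ratio -3.34). Hoxb3 followed at 3.90 FPKM in subcortex and 0.00919 in cortex (-2.23), and then Hoxb5, listed at 0 in cortex, at 3.53 FPKM in subcortex.

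Levels in subcortex differed by paralogue group. In groups 1 to 5, 11 of 15 genes reached 1 FPKM (median over the 15 of 2.27 FPKM), in groups 6 and 7, 3 of 5, and in groups 8 and 9, 0 of 7, with a highest value of 0.613 FPKM. In group 1, Hoxb1 was listed at 0 and Hoxd1 stood at 0.137 FPKM. In the vKO subcortex both were again below 1 FPKM, and Hoxa5 stood at 11.4 FPKM. The promoter of Hoxa5 is shown for the most abundant Hox gene. RefSeq places the gene at chr6:52201754-52204587, and the 250 bases before it lie at chr6:52204588-52204837, given 5′ to 3′ on the minus strand, with the E-box CAGCTG in capitals.
Hoxa5: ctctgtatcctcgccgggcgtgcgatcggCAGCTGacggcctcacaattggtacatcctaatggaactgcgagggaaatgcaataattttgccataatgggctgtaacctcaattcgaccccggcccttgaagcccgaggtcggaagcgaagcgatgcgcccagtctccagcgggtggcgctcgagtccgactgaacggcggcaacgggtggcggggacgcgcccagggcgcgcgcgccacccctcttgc

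**Figure D4:**
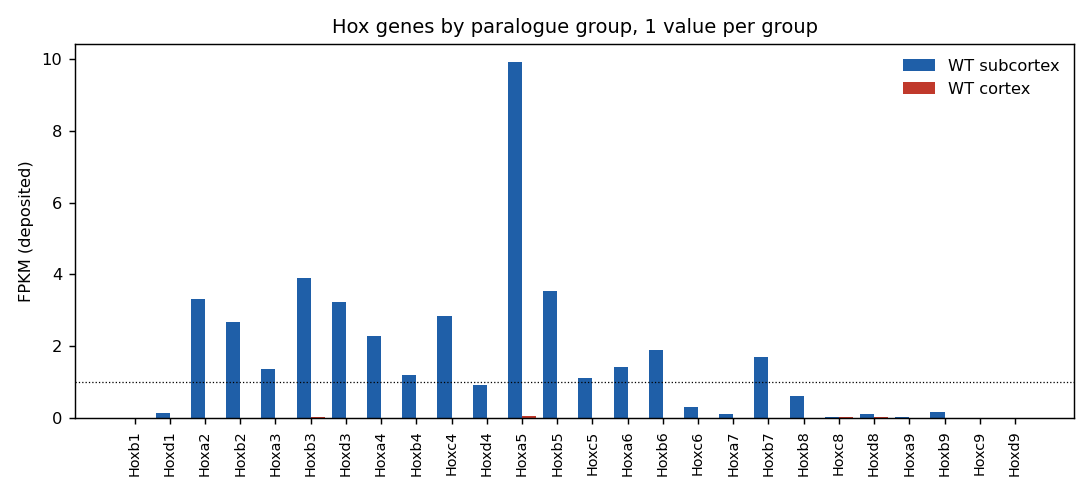
FPKM as deposited of 26 of the 27 Hox genes, ordered by paralogue group 1 to 9, in WT subcortex (blue bars) and WT cortex (red bars, at most 0.0418 and therefore hardly visible); the dotted line marks 1 FPKM. Bars above the line run from group 2 to group 7, with Hoxa5 highest at 9.93.

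The letters marked in the 3 promoters are common. Promoters of 300 bases (250 before and 50 after the start, RefSeq) were matched to 8195 of the compared genes with a single entry, small RNAs and mouse chromosome 18 left out. Read on both strands, CAGATG was present in 10.6% of them, CAGCTG in 14.9%, TAATTA in 2.29% and the TATA sequence TATAAA in 6.75%. Of the 178 promoters of genes higher in cortex, 7.87% held CAGATG, 10.1% CAGCTG, 2.25% TAATTA and 13.5% TATAAA. Of the 270 of genes higher in subcortex, 15.2%, 18.9%, 2.96% and 11.5% held them in the same order. Over all 22862 promoters of the table the shares were 17.4%, 16.1%, 5.45% and 14.8%. These are matches of letters, not binding sites, and no test was made of them.

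Some glial genes were higher in subcortex and none past 2-fold in cortex. Of 24 radial glia and astrocyte genes, 8 were at least 2-fold higher in subcortex and none in cortex (median -0.47). Aqp4, the water channel of astrocyte endfeet, was at 6.16 and 26.7 FPKM (log2 ratio -1.89), Agt, the angiotensinogen gene of mature astrocytes, at 2.06 and 13.0 FPKM (-2.13), and S100b at 1.63 and 8.19 FPKM (-1.75). Fabp7, the lipid-binding protein of radial glia, was the most abundant, at 723 and 1598 FPKM (-1.08), but at -0.78 with the length trend removed. Glul, the glutamine synthetase of astrocytes, was within 2-fold at 83.3 and 93.6 FPKM (-0.11). Members with higher values in cortex included Tnc, an extracellular matrix protein of radial glia, at 52.5 and 27.7 FPKM (0.96). Ptprz1 (76.4 and 47.4 FPKM, 0.74), Nes (0.51) and Sox9 (7.26 and 5.05 FPKM, 0.50) lay on the same side. All of them are named after their values were seen. In bulk tissue, fewer cells of a type and less RNA per cell cannot be told apart.

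Of 17 oligodendrocyte lineage genes, 7 were higher in subcortex and none in cortex (median -0.78). They included the myelin genes Mbp (7.07 and 21.9 FPKM, log2 ratio -1.45), Cnp (8.81 and 22.1 FPKM, -1.18) and Mag (0.443 and 2.08 FPKM, -1.05). Genes of the precursor stage differed less: Olig1 stood at 21.0 and 43.7 FPKM (-0.96) and Pdgfra, the receptor that keeps precursors dividing, at 16.0 and 20.2 FPKM (-0.26).

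None of 20 endothelial barrier genes was past 2-fold (median 0.20), beside 3.21% and 3.88% of all genes, so that a count of 0 in a list of this size is near the background. Among them were Cldn5, the tight-junction claudin of brain endothelium, at 46.8 and 42.1 FPKM (log2 ratio 0.21), Slc39a10 at 32.2 and 34.3 FPKM (-0.03) and Slc3a2 at 29.6 and 26.7 FPKM (0.20). None of 19 pan-endothelial genes (median 0.34) and none of 13 pericyte and smooth muscle genes (median 0.05) was past 2-fold. Of the pan-endothelial genes, Cdh5 (6.89 and 3.62 FPKM, 0.82), Kdr (11.0 and 6.42 FPKM, 0.74) and Vwf (4.08 and 2.2 FPKM, 0.71) came near it on the cortex side and are named after their values were seen. Among 10 genes of the Wnt7 pathway and of Norrin signalling, 2 were past 2-fold toward cortex, both of them Wnt7 ligands. With the length trend removed 1 of the 10 was past 2-fold toward cortex, and likewise 1 in vKO. Wnt7b, made by neurons and progenitors, was at 21.2 and 6.96 FPKM (1.53) and Wnt7a at 9.69 and 4.38 FPKM (1.04).

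None of the receptor genes of that pathway was past 2-fold. Reck was at 2.91 and 2.37 FPKM (log2 ratio 0.26), Gpr124, its partner in the Wnt7 receptor complex, at 3.84 and 2.69 FPKM (0.44), Fzd4 at 1.91 and 1.22 FPKM (0.42) and Ndp, the Norrin ligand, at 2.50 and 1.90 FPKM (0.31). The co-receptors Lrp5 (3.93 and 2.2 FPKM, 0.67) and Lrp6 (17.2 and 10.6 FPKM, 0.70) and, in the other direction, Tspan12, a coactivator of Norrin signalling, at 7.08 and 14.8 FPKM (-0.91), differed by more than 1.5-fold. In the vKO groups Reck was at 3.23 and 3.49 FPKM, not below WT; the labelled deletion is limited to cells with Tie2Cre activity, so this bulk value of the whole gene does not check it.

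Markers of tissues next to the brain were looked at as well. Of 13 choroid plexus genes 2 were higher in subcortex (median -0.03), and Ttr, the transthyretin gene that dominates this epithelium, was at 504 and 484 FPKM. Of 17 meningeal fibroblast genes 1, Crabp2 (5.68 and 17.0 FPKM, log2 ratio -1.37), was higher in subcortex (median 0.02), a count near the 3.88% of all genes. Summed levels of this list were 293 and 461 FPKM, of which Ptgds gave 161 and 318. None of 12 microglial genes was past 2-fold (median -0.43), a count near the 3.21% and 3.88% of all genes for so short a list. Of 4 erythroid genes compared, 1 was higher in subcortex, Hbb-bs at 0.00634 and 6.39 FPKM, a globin gene that the tables also hold in an entry joined with Hbb-b1. That joined entry was at 233 and 403 FPKM (log2 ratio -0.72), Hba-a2 at 14.2 and 17.5 FPKM and Alas2 at 5.70 and 5.30 FPKM.

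Of 20 genes of pituitary, sensory ganglia and eye, 4 were compared, with summed levels of 7.25 and 56.1 FPKM. The pituitary hormone genes Gh, Prl and Fshb were listed at 0 in both tissues. Sncg, a synuclein of sensory and brainstem neurons, was at 0.664 and 37.0 FPKM (log2 ratio -4.45), Prph, the peripherin of neurons projecting out of the brain, at 0.460 and 10.2 FPKM (-2.88), and Pou4f3 was listed at 0 in cortex and at 1.80 FPKM in subcortex. Trpv1 and Scn10a, which define pain-sensing ganglion neurons, stood below 0.1 FPKM in both tissues.

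By counts past 2-fold, receptor genes in the WT groups were more evenly spread than transmitter genes. Of 23 glutamate receptor genes 1 was higher in cortex, Grin2b, the NMDA receptor subunit of immature synapses, at 50.6 and 18.5 FPKM (log2 ratio 1.46). In subcortex 1 was higher, Grin2d, at 3.53 and 8.77 FPKM (-1.05), and the list median was 0.00. For a list of this size these counts are near the 3.21% and 3.88% of all genes. In vKO the list median was -0.67, with 0 members higher in cortex and 6 in subcortex. Grin2b codes a long transcript and its ratio was 1.10 with the length trend removed. Of 19 GABA and glycine receptor genes, Gabrd was higher in cortex (1.89 and 0.0948 FPKM, 1.41), and Glra1, the adult glycine receptor subunit of the brainstem, at 0.0559 and 2.40 FPKM (-1.64), Gabrg1 at 5.93 and 17.0 FPKM (-1.32) and Glra3 at 1.94 and 5.64 FPKM (-1.13) were higher in subcortex. The median of these 19 genes was -0.46.

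Of 32 receptors for monoamines, acetylcholine, opioids and cannabinoids, 4 were higher in cortex and 8 in subcortex (median -0.21). Chrm1, the M1 muscarinic receptor of cortical and striatal neurons, was at 5.77 and 0.301 FPKM (log2 ratio 2.39). Cnr1, the cannabinoid receptor found on growing cortical axons, was the most abundant, at 66.2 and 33.7 FPKM (1.01). Chrna3, the nicotinic subunit of the habenula, was at 1.54 and 6.49 FPKM (-1.51) and Htr1b at 3.42 and 10.4 FPKM (-1.32).

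Of 35 axon guidance ligands and receptors, 6 were higher in cortex and 1 in subcortex (median 0.44). Plxna2 and Plxna4, receptors for class 3 and class 6 semaphorins, were at 56.0 and 13.4 FPKM (log2 ratio 2.04) and 38.3 and 13.0 FPKM (1.55), and Draxin, a repulsive cue for commissural axons, at 19.9 and 7.36 FPKM (1.38). Ntng1, a netrin-G of thalamic axons, was the member higher in subcortex (7.42 and 20.5 FPKM, -1.29). Plexin transcripts are long, and the list's median was 0.25 with the length trend removed and -0.03 in the vKO groups.

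Among 20 ephrins and Eph receptors, 6 were higher in cortex and 1 in subcortex (median 0.37). Efnb2 was at 42.3 and 9.05 FPKM (log2 ratio 2.16), Epha3 at 28.1 and 8.87 FPKM (1.61) and Epha10 at 2.19 and 9.08 FPKM (-1.61). Of 17 cadherins 3 were higher in subcortex, Cdh22 (3.31 and 11.1 FPKM, -1.44), Cdh18 (5.89 and 18.3 FPKM, -1.43) and Cdh7 (4.92 and 15.3 FPKM, -1.41), and none in cortex.

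Of 25 genes of the Wnt, Bmp, Fgf and Shh pathways, 3 were higher in cortex and 1 in subcortex (median -0.07). Besides the Wnt7 genes these were Sfrp1, a secreted Wnt inhibitor of cortical progenitors, at 14.3 and 6.69 FPKM (log2 ratio 1.04), and Wnt3 at 1.13 and 4.08 FPKM (-1.20). For a list of this size the subcortex count is near the 3.88% of all genes. With the length trend removed 1 member was past 2-fold toward cortex and 1 toward subcortex. Of 13 immediate early genes, which neurons induce with activity, Fosl2 (11.6 and 1.13 FPKM, 2.60) and Egr3 (2.60 and 0.115 FPKM, 1.70) were higher in cortex. Jund, the most abundant, was at 28.4 and 40.4 FPKM (-0.43).

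Entries marked as testable in both tissues were ranked, leaving out small RNAs, predicted gene models, sex-linked genes, globins and symbols turned into dates. The 15 with the largest ratio toward cortex were Mpped1, Neurod6, Sla, Mef2c, Tiam2, Slc17a7, Dlx6os1, Dlx1as, Zbtb18, Lhx6, Neurod2, Crym, Ppp1r1b, Bhlhe22 and Fosl2. Their log2 ratios ran from 4.08 down to 2.60. Mpped1, a metallophosphoesterase gene, led at 141 and 7.72 FPKM. Tiam2, which activates the GTPase Rac in growing neurites, was at 35.7 and 2.06 FPKM (3.63) and Sla at 39.7 and 2.12 FPKM (3.74). Tbr1 is not among them because the subcortex table marks it as too low to test.

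Toward subcortex the 15 were Ebf3, Pmch, Tcf7l2, Lhx9, Resp18, Aldh1a1, Gapdh, Nap1l5, Nefl, Nefh, AW551984, Asic4, Crnde, Vamp1 and Car8, from -3.13 to -2.23. Nefl, the light neurofilament chain of large axons, was the most abundant at 47.3 and 268 FPKM, 5.43-fold by scaled FPKM. Resp18, a secretory granule protein, was at 19.1 and 120 FPKM (-2.53), Aldh1a1, the retinaldehyde dehydrogenase of dopamine neurons, at 0.637 and 8.39 FPKM (-2.47), and Vamp1, a synaptic vesicle protein, at 2.18 and 14.6 FPKM (-2.23). Gapdh (2.69 and 19.6 FPKM) has many near-identical copies in the genome, between which reads can be split, and its value is uncertain.

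The same ratio could be taken in the vKO groups, which share no sample with the wild-type ones. In those groups 2.35% of the 13741 genes compared in both genotypes were at least 2-fold higher in cortex and 4.59% in subcortex. Over these genes Pearson's r between both ratios was 0.52 and Spearman's rho 0.56, given as a description since genes are not independent. Counted among all 14063 genes compared in WT, 377 of the 452 genes higher in WT cortex (83.4%) had the same sign in vKO. The same held for 492 of the 545 higher in WT subcortex (90.3%). Again past 2-fold were 194 (42.9%) and 375 (68.8%). The share of all genes with the same sign was not calculated, so the sign counts have no background beside them. Leaving out small RNA entries, 348 of 362 genes higher in WT cortex (96.1%) had the same sign in vKO and 176 (48.6%) were again past 2-fold. Of 493 higher in WT subcortex, 475 (96.3%) had the same sign and 360 (73.0%) were past 2-fold. Without them r was 0.73 and rho 0.58 over 13552 genes.

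All 15 leading cortex genes were past 2-fold toward cortex in vKO, and 14 of the 15 leading subcortex genes past 2-fold toward subcortex. The exception was Gapdh, at 29.3 and 4.18 FPKM in vKO, opposite to wild type. Blood genes went another way in vKO: Hba-a2 was at 613 FPKM in vKO cortex and 68.2 in vKO subcortex. The list medians of microglial genes (-0.43 in WT and 0.31 in vKO) and endothelial barrier genes (0.20 and -0.29) also had opposite signs. Xist, the transcript of the inactive X chromosome, was at 0.0417 and 0.0369 FPKM in the WT groups and at 18.6 and 10.2 FPKM in the vKO groups, so its level differed between the genotypes and not between the WT tissues, and its part in the vKO ratios was not tested. The Y-linked Eif2s3y was at 30.4 and 27.6 FPKM in WT.

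**Figure D5:**
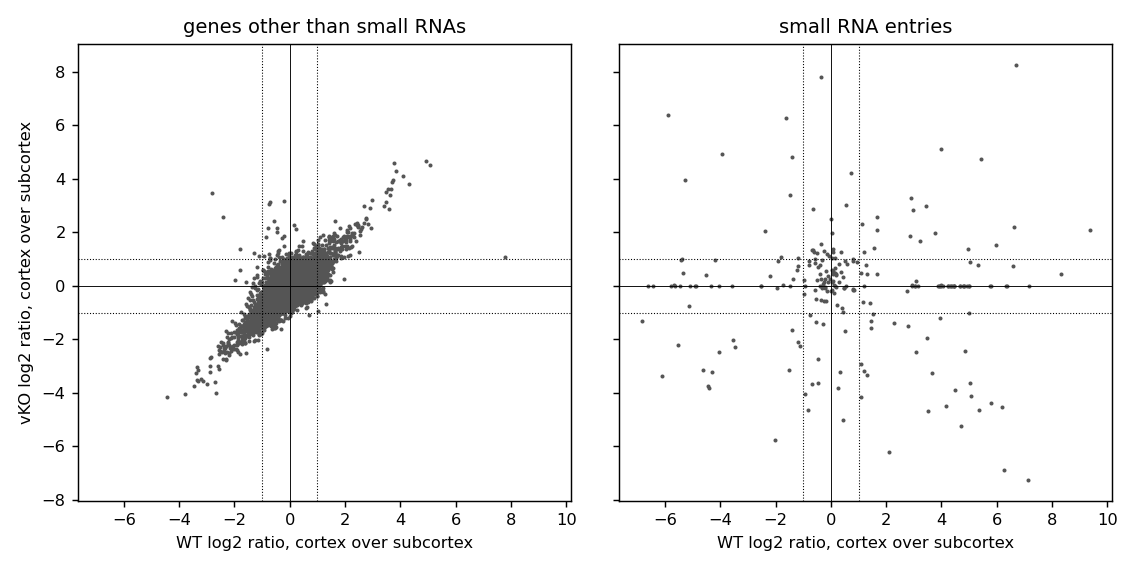
Log2 ratio of cortex over subcortex in vKO (vertical) against WT (horizontal), each point 1 entry, for genes other than small RNAs (left) and for small RNA entries (right); dotted lines mark 2-fold. The left cloud runs along the diagonal, while small RNA entries scatter over all quadrants and a row of them lies at 0 in vKO.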

How the data were processed

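The authors deposited 2 gene tables from Cuffdiff, 1 for cortex and 1 for subcortex, with 1 FPKM per group. Reads were aligned with HISAT2 2.0.1 to mm10 and processed with Cufflinks 2.2.1, per the submitters' processing notes, which give no Cuffdiff version; libraries were made from 250 ng total RNA with a stranded kit, per the labels' protocols. Depth per sample is unknown. Columns named W and M were read as wild type and vKO by group; replicates are not separate. Tables were joined by symbol with repeated symbols dropped, filtered at FPKM of at least 1 in one tissue, scaled by the median ratio and compared with a pseudocount of 1 (python 3.11.15, pandas 2.3.3, numpy 2.4.6), with scripts checked on simulated data. Entries listed at 0 received no fold. Lengths are those of the longest protein-coding transcript in the GENCODE annotation; the trend was removed as the median of 20 length bins. Of 733 listed genes, 725 matched by symbol and 6 by an older symbol. Members and lists were chosen with earlier results of these data known. Genes were named by rule, and others say so or complete a count. The rule took the 15 leading genes per direction with usable status in both tables. Small RNAs, predicted gene models, sex-linked genes, globins and symbols turned into dates were left out of these. The rule also took up to 8 members per list with the largest ratio past 2-fold, the 4 of highest level, and absent markers. Alternatives changed the pseudocount, scaling, filter, status, length and threshold. Some list members, counted in the lists, are not reported here by name.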

Additional observations from a re-analysis of the deposited data

How the results depend on the processing

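No paired analysis was possible because the tables hold 1 value per group, and for the same reason no replicate could be left out. Over 13 alternative settings, 469 of 493 recalculated list medians moved by less than 1.5-fold and 24 by more, none with a called value changing sign; for single genes 7508 of 7759 moved by less. The cause of the shifts below was not tested beyond what each setting is. With a pseudocount of 0.1, 870 genes were higher in subcortex, of which 612 were again past 2-fold in vKO (375 of 545 at a pseudocount of 1, and 194 of 452 in cortex), and medians were -2.38 for hypothalamic factors, -3.77 for midbrain, -4.62 for Hox, -3.95 for hindbrain and -4.16 for pituitary, ganglion and eye genes. With a pseudocount of 5 the counts were 231 in cortex and 203 in subcortex (53.2% toward cortex), 98 and 120 recurred in vKO, and medians were -0.48 for transmitter genes, -0.57, -0.74, -0.56, -0.69 and -0.93 for the lists just named. Without the filter, medians were -0.50 for hypothalamic factors, -1.04 for Hox and -0.12 for pituitary, ganglion and eye genes. With FPKM of at least 5, they were -2.49 for midbrain, -3.34 for Hox, -2.55 for hindbrain, -2.88 for pituitary, ganglion and eye genes and 0.81 for Wnt, Bmp, Fgf and Shh genes. Keeping entries testable in both tables left 244 subcortex calls recurring in vKO and medians of -0.62 for transmitter, -0.51 for hypothalamic and -0.16 for pituitary, ganglion and eye genes. Leaving out entries at 0, chosen after seeing the data, gave -2.78 for Hox and -2.88 for pituitary, ganglion and eye genes. At 1.5-fold the counts were 1359 and 1566, with 476 and 954 recurring in vKO; at 4-fold they were 134 and 100, with 44 and 62. Differences of genes under about 1 FPKM therefore rest on the pseudocount, and the unknown depth gives them no interval.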

Other observations

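These groups of genes were put together after the values had been seen, and their counts are descriptions only. Of 8 neurofilament and synuclein genes, which code for cytoskeletal and presynaptic proteins of neurons, 5 were at least 2-fold higher in WT subcortex and none in cortex (median log2 ratio -1.91). Nefm, the medium chain, was at 8.43 and 26.8 FPKM (-1.50) and Nefh, the heavy chain, at 1.02 and 9.53 FPKM (-2.33), while Ina, the internexin of immature neurons, was at 84.4 and 87.6 FPKM (0.01).

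Of 45 imprinted genes compared, which are expressed from one parental copy, 11 were higher in subcortex and none in cortex (median -0.49; 15 of them with the length trend removed). Nap1l5 was at 27.1 and 156 FPKM (log2 ratio -2.42), Ndn at 175 and 357 FPKM (-0.96) and Snrpn at 110 and 235 FPKM (-1.03). H19 was at 30.1 and 79.0 FPKM in WT (-1.30) but had a log2 ratio of 0.30 in vKO. The most abundant, Nnat, was at 941 and 1694 FPKM (-0.79).

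Transcription factor families split by member. All 5 Iroquois genes compared and all 3 Pou4 genes were higher in subcortex, as were 5 of 6 Pax genes. Each of these was below 1 FPKM in cortex and entered the comparison through its subcortex level alone. The filter thus set their direction, and these counts do not show that the families as a whole lean to subcortex. The exception among the Pax genes, Pax6, was at 6.34 and 11.9 FPKM (log2 ratio -0.75). Nuclear factor I genes went toward cortex, 3 of 4, led by Nfix at 51.4 and 8.27 FPKM (2.55). LIM homeobox genes went both ways, 3 toward cortex (Lhx2, Lhx6 and Lhx8) and 5 toward subcortex.

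Small RNA entries behaved unlike other genes. Of 236 compared, 90 were at least 2-fold higher in cortex and 52 in subcortex, 60.2% in all, beside 6.18% of the other 13827 genes. All 68 entries listed at 0 in subcortex but not in cortex were small RNAs, as were 33 of 62 listed at 0 in cortex. Of the 90, 18 were again 2-fold higher in vKO cortex and 27 were 2-fold higher in vKO subcortex. Snord99, a small nucleolar RNA, was at 655 FPKM in cortex and listed at 0 in subcortex, and at 963 and 234 FPKM in the vKO groups. FPKM divides by a length that is very small for such entries, and the part of this in their spread was not tested.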
